A study of Mus musculus with 30 samples.

Results

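A set of 9 enzyme genes was followed across dendritic cell cultures: Acod1, which encodes the enzyme that makes itaconate; Nos2, Arg1 and Arg2, whose enzymes consume arginine; Gch1, whose enzyme starts synthesis of the cofactor of nitric oxide synthases; Sod2; and Ido1, Ido2 and Kmo of the tryptophan pathway. The members were taken by gene symbol, as 9 of the 25611 gene rows of the count table, and each had a single row. All 9 were among the 14808 genes that passed the filter on low counts. The rule takes rows by symbol alone, but the members were chosen with earlier results of these data known.

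The libraries came from mouse bone marrow cells grown for 6 to 7 days in FLT3L (200 ng/ml), a cytokine that drives dendritic cell development. All 10 groups share this culture. Cells were Rubcn WT (WT) or Rubcn KO (KO); Rubcn encodes Rubicon, a protein of LC3-associated phagocytosis. In each genotype they received no treatment, OVA protein for 30 min or 4 h, or were given apoptotic Jurkat cells over the same times; Jurkat is a line derived from a human T-cell leukaemia. Each group had 3 libraries. Separate mice are not named for them, so the p-values measure the spread between libraries, which may be partly technical. The mouse strain, the age of the donors and the nature of the knockout allele were not given in the sources used here.

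Itaconate is made from the citric acid cycle intermediate cis-aconitate and slows succinate dehydrogenase. Arginine is shared between nitric oxide synthases, which make nitric oxide, and arginases, which make ornithine and urea. Tryptophan is opened by indoleamine dioxygenases, and kynurenine monooxygenase acts further down the same route. Several of these enzymes are known as inducible products of activated myeloid cells.

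Library totals ran from 9.73 to 51.6 M counts (median 44.9), and the shallowest was KO library 3 of OVA 30 min. Rubcn itself ran from 56.1 to 104.6 CPM (counts scaled to library size) in the 15 WT libraries and from 44.4 to 75.8 CPM in the 15 KO libraries, and in 5 of 5 conditions every KO library was below every WT library. The Rubcn medians were 88.3 CPM in WT and 70.4 CPM in KO. A count over the whole gene does not show whether any exons are lost. The 6 general dendritic cell markers were present in every group, with a summed level of 19600 to 38100 CPM in WT and 20200 to 36100 CPM in KO. The genotypes also differed in markers of other cells. Over all libraries the 9 basophil or mast cell genes summed to 22.0 to 70.3 CPM in WT and 59.4 to 138 CPM in KO, the 8 stromal genes to 494 to 911 CPM in WT and 703 to 1260 CPM in KO, and the 10 plasmacytoid dendritic cell genes to 2820 to 4270 CPM in WT and 2180 to 3320 CPM in KO. In untreated KO cells 8 of 8 basophil or mast cell genes tested and 5 of 8 stromal genes were called higher. Of the plasmacytoid genes 4 of 10 were lower and 1 higher, where 3.97% of all genes were lower and 6% higher. The 12 neutrophil genes summed to 185 ± 6.78 CPM in WT and 155 ± 0.576 CPM in KO at OVA 4 h. There 3 of 12 were called lower in KO and 0 higher, where 6.35% of all genes were lower and 6.22% higher. At Jurkat 4 h their sums were 180.3 ± 1.38 CPM (WT) and 149 ± 2.94 CPM (KO). Of them, 5 were called lower and 1 higher, where 22.9% of all genes were called (2004 of 14808 lower, 1388 higher). None of these markers was at 0 in a whole group. In RNA from a mixed culture, fewer cells of a type and less RNA per cell cannot be told apart, and the part of these differences in the results below was not tested.

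Levels are CPM on library sizes scaled by TMM, given as mean ± SD over 3 libraries. Differences were tested over all 30 libraries with the quasi-likelihood method of edgeR, and a call is an FDR (Benjamini-Hochberg adjusted p over all 14808 genes) under 0.05. Scaling matters for Jurkat cells at 4 h. With total counts in place of TMM, the median log2 difference from untreated cells over all genes moved by -0.40 in WT and by -0.34 in KO, and the share of calls that were higher moved from 48.9% to 29.0% in WT and from 47.7% to 29.2% in KO. For KO against WT it moved from 40.9% to 74.8% at Jurkat 4 h, from 49.5% to 64.5% at OVA 4 h and from 50.5% to 63.8% at OVA 30 min.

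In untreated WT cells the members covered a very wide range. Per kilobase of transcript, so that genes can be compared, Kmo was at 175 ± 2.997 CPM, far above Sod2 (8.72 ± 0.252), Gch1 (5.82 ± 0.285), Arg2 (1.52 ± 0.125) and Acod1 (0.584 ± 0.0798). Ido1 (0.215 ± 0.0278), Ido2 (0.173 ± 0.0679) and Arg1 (0.122 ± 0.0349) followed, and these neighbours overlapped in their spread. Nos2 was lowest at 0.00516 ± 0.00532 CPM per kilobase, which rests on 3 counts in 3 libraries. After 4 h of Jurkat cells the order in WT was different. Acod1 then led at 323 ± 34.4 CPM per kilobase, ahead of Kmo (132 ± 8.40), Gch1 (47.1 ± 3.23), Sod2 (36.2 ± 0.873) and Nos2 (16.1 ± 1.73). Arg2 (4.25 ± 0.523), Ido1 (2.86 ± 0.415), Ido2 (1.14 ± 0.0655) and Arg1 (0.175 ± 0.0238) came last.

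**Figure D1:**
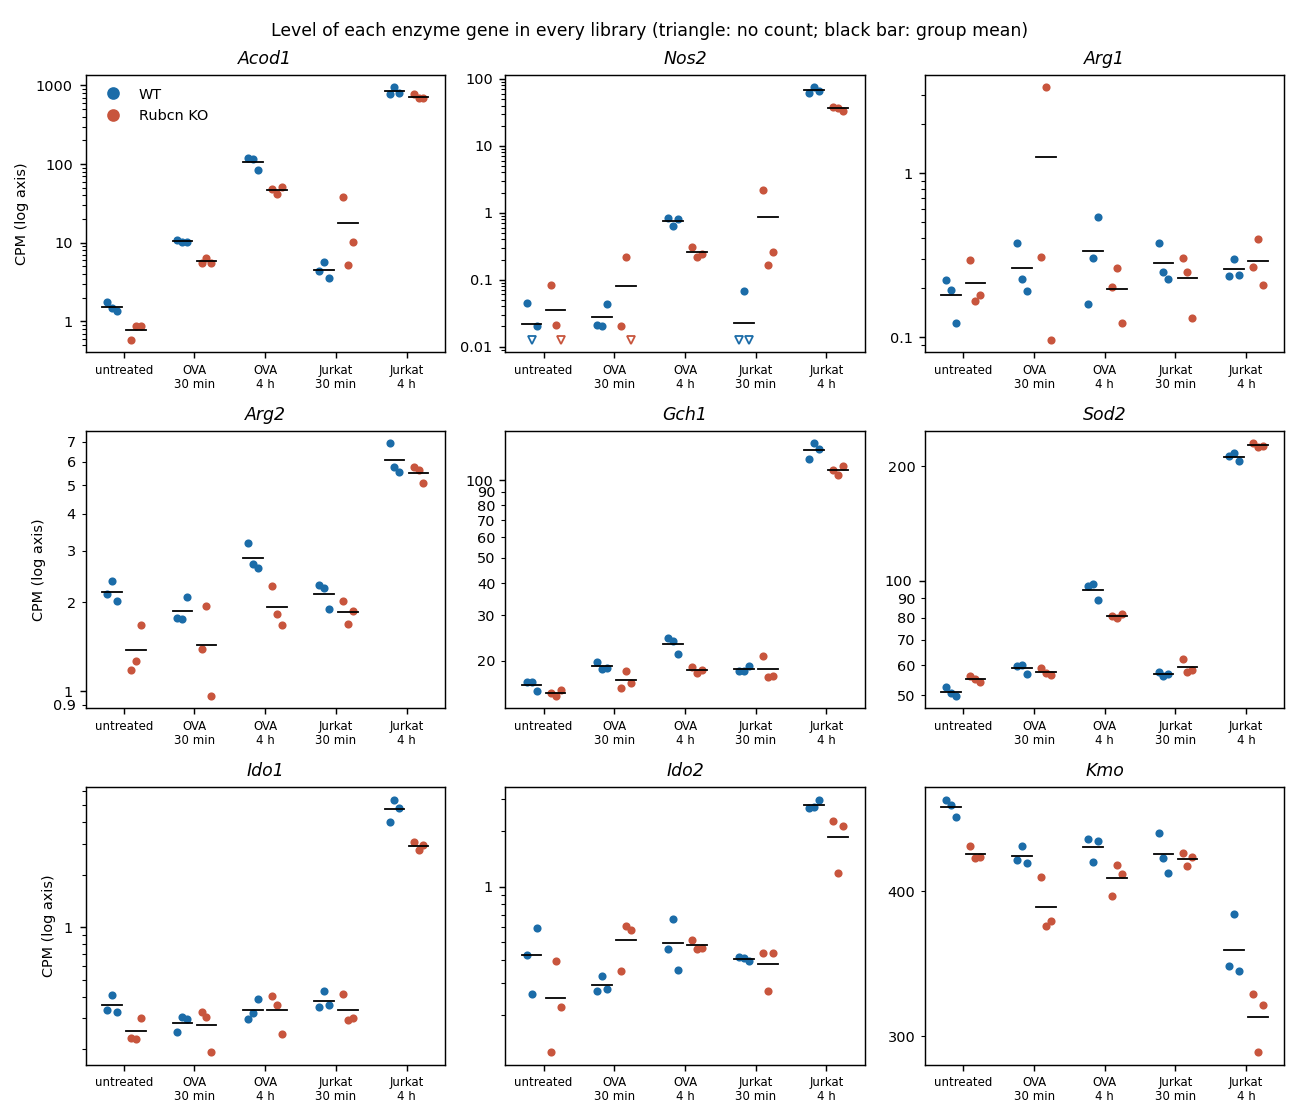
CPM of each of the 9 genes in every library (log axis, a separate scale for each gene), by condition and genotype, with 3 libraries per group and the group mean as a black bar; triangles mark libraries with no count. Jurkat 4 h stands above every other condition for Acod1, Nos2, Arg2, Gch1, Sod2, Ido1 and Ido2 and, within each genotype, below them for Kmo; single libraries stand apart in KO Jurkat 30 min (Acod1 at 38.3 CPM) and KO OVA 30 min (Arg1 at 3.35 CPM).

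Upstream sequence was at hand for 4 of the 9 members in the RefSeq promoter table (GRCm38.p6). The 250 bases before the start of Acod1, Gch1 and Sod2, which rose under both treatments at 4 h, are shown beside those of Kmo, which fell with Jurkat cells. Capitals mark matches to the motifs searched on both strands.
Acod1: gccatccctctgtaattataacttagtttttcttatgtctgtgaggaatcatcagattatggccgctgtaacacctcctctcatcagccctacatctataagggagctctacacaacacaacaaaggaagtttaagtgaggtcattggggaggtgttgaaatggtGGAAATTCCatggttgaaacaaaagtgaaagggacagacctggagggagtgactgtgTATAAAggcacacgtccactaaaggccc
Gch1: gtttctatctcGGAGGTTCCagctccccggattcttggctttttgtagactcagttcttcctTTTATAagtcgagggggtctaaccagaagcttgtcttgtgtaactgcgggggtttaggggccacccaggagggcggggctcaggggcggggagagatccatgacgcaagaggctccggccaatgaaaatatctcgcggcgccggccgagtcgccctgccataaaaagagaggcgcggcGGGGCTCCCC
Sod2: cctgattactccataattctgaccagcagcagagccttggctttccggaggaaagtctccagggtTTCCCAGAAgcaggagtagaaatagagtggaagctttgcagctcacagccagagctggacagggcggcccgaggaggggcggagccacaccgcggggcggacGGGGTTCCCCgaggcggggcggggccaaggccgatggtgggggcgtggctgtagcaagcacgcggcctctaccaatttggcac
Kmo: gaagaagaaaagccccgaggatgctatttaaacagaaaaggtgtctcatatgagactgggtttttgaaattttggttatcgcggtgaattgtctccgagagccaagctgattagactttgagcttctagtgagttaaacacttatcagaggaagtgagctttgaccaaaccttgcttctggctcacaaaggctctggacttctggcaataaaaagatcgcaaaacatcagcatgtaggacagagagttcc
These windows lie at chr14:103046762-103047011 (plus strand, Acod1), chr14:47189414-47189663 (minus strand, Gch1), chr17:13007589-13007838 (plus strand, Sod2) and chr1:175631943-175632192 (plus strand, Kmo).

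The motifs searched were the NF-kB consensus, a shorter NF-kB-like form GGANNTTCC, the interferon response element (GAAA, any 2 bases, GAAA), the GAS element TTCNNNGAA and the TATA box TATAAA. The shorter form was added after the sequences had been seen. An NF-kB match stood 83 to 74 bases before the Sod2 start (GGGGTTCCCC) and 10 to 1 bases before the Gch1 start (GGGGCTCCCC); both letter strings match on either strand. Among all 32851 windows of this length, 7.25% held such a match. Acod1 held the shorter form 85 to 77 bases before its start (GGAAATTCC) and a TATA box 28 to 23 bases before it. Gch1 held the shorter form 239 to 231 bases before its start and a TATA box on the opposite strand at 188 to 183 bases. Sod2 also held a GAS match (TTCCCAGAA) 185 to 177 bases upstream. No window held the interferon element, and that of Kmo held none of the 5 motifs. The share of all windows with a match was 3.59% for the shorter form, 2.98% for the interferon element, 7.02% for GAS and 12.4% for the TATA box. A match is a description of the letters and not a binding site.

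Acod1 (Entrez 16365, mm10 chromosome 14, 103047012 to 103056573) was nearly silent without treatment and rose with every stimulus. The untreated libraries held 1.76, 1.49 and 1.35 CPM in WT and 0.588, 0.871 and 0.882 CPM in KO. At 30 min of OVA the values were 10.98, 10.2 and 10.3 CPM in WT and 5.54, 6.36 and 5.50 CPM in KO. By 4 h of OVA they were 119, 117 and 83.5 CPM in WT and 48.8, 41.3 and 51.1 CPM in KO. Every OVA library was above every untreated library of its genotype, and at each of these steps the WT libraries were above the KO libraries.

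The response of Acod1 to OVA was among the largest of any gene. Against untreated cells the log2 difference at 4 h was 6.12 ± 0.44 (SE) in WT and 5.91 ± 0.50 in KO (edgeR FDR 1.36e-11 and 1.17e-09), the highest of 10227 and of 10240 genes that reached 5 CPM. At 30 min it was 2.78 in WT (FDR 0.000565) and 2.91 in KO (FDR 0.00979), the 2nd highest in both. The KO call at 30 min was lost without KO OVA 30 min library 2 (FDR 0.0658). All comparisons of a genotype with its untreated cells share the same 3 untreated libraries.

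KO cells held less Acod1 than WT cells after OVA. The 4 h means were 106.6 ± 20.1 CPM (WT) and 47.1 ± 5.13 CPM (KO), a log2 difference of -1.18 ± 0.29 (edgeR FDR 0.00655), which passed in each of 14 alternative fits. The same comparison gave -0.84 at 30 min (FDR 0.210) and -0.96 in untreated cells (FDR 0.559), both without overlap between the libraries. In fits of the compared groups alone these 2 differences had FDRs of 9.06e-06 and 0.0102. The OVA 30 min difference was also called without KO Jurkat 30 min library 1 and KO OVA 30 min library 2 (FDR 0.0154). The untreated difference was not called in that fit, and the cause was not tested. The response to OVA 4 h did not differ detectably between genotypes (KO minus WT -0.21, 95% interval -2.07 to 1.64, FDR 0.990).

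With apoptotic Jurkat cells for 30 min, Acod1 was at 4.33, 5.69 and 3.59 CPM in WT and at 38.3, 5.21 and 10.1 CPM in KO. The KO libraries spread over a wide range, library 1 stood far above the others, and the genotypes overlapped. KO against WT gave 1.99 ± 0.40 on the log2 scale (edgeR FDR 0.00152), but 0.76 (FDR 0.0261) without KO library 1, and the call was lost in a fit of these groups alone (FDR 0.0778). The same library also held 59.8 CPM of Cxcl9 (3.81 and 9.62 in the others) and 102.6 CPM of Cxcl10 (8.99 and 20.6), 2 chemokine genes looked up after the values were seen. Its sum over the 16 monocyte or macrophage markers was 4453 CPM, against 4775 and 4906 CPM in the other libraries of the group. Why this library stood apart was not tested. Against untreated cells Acod1 rose by 1.56 in WT (FDR 0.0436) and by 4.505 in KO (FDR 5.46e-07; 3.28 without KO library 1). The WT call was lost without any of 5 single libraries: untreated 1, 2 or 3 (FDR 0.0708, 0.0959 and 0.119) and Jurkat 30 min 1 or 2 (FDR 0.0817 and 0.129).

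At 4 h of Jurkat cells Acod1 reached 789, 951 and 801 CPM in WT and 774, 690 and 692 CPM in KO. All KO libraries were below all WT libraries, by a small margin. The rise over untreated cells was 9.11 ± 0.45 in WT and 9.84 ± 0.48 in KO on the log2 scale (edgeR FDR 2.18e-17 and 2.09e-17), the 18th and 7th highest among 10548 and 10569 genes. KO against WT gave -0.24 (95% interval -0.80 to 0.32, FDR 0.581), so a difference was not shown.

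Nos2 (Entrez 18126, chromosome 11, 78920787 to 78960226), the inducible nitric oxide synthase, was close to absent without Jurkat cells. The untreated libraries held 2, 0 and 1 counts in WT and 4, 1 and 0 counts in KO. At 4 h of OVA they held 37, 29 and 44 counts in WT (0.762 ± 0.118 CPM) and 17, 9 and 10 counts in KO (0.258 ± 0.0495 CPM), without overlap between genotypes.

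From the summed counts, the OVA 4 h level was 35.7 times the untreated level in WT (95% counting interval 11.9 to 176) and 7.66 times in KO (2.996 to 25.0). The fitted log2 difference depends on the prior count at such levels; it passed in WT (edgeR FDR 0.00102) and not in KO (FDR 0.166; adjusted p 0.0392 with DESeq2). KO against WT at OVA 4 h was -1.53 (FDR 0.125), and -1.54 (FDR 0.00157) in a fit of these groups alone. Intervals of this kind cover counting error only.

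Jurkat cells at 4 h brought Nos2 to 61.1, 75.3 and 66.2 CPM in WT and 38.6, 37.4 and 33.7 CPM in KO, the lowest WT library being well above the highest KO library. The level was 3145 times that of untreated cells in WT (95% counting interval 1076 to 15254) and 1065 times in KO (456 to 3283). KO cells held less Nos2 than WT cells, at 36.6 ± 2.52 against 67.5 ± 7.23 CPM, a log2 difference of -0.88 ± 0.18 (edgeR FDR 0.000725). This was the 24th lowest value among 10168 genes. It passed in 13 of 14 alternative fits and not with DESeq2 (adjusted p 0.441, log2 difference -0.90).

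At 30 min of Jurkat cells Nos2 showed the scatter seen for Acod1. The KO libraries held 100, 8 and 12 counts and the WT libraries 0, 3 and 0 counts. Library 1 of KO again stood apart, and the genotypes did not overlap at the level of CPM. From the summed counts and library sizes the KO to WT ratio was 40.9 (95% counting interval 13.7 to 201) with library 1 and 10.2 (3.02 to 53.5) without it. The test passed (edgeR log2 difference 5.18, FDR 0.00182; 3.18 and FDR 0.0213 without KO library 1; 8.24 without WT library 2, which held all WT counts) but not in a fit of these groups alone (FDR 0.0578). The rise over untreated KO cells passed likewise (FDR 0.00118, 0.0342 without library 1, and 0.0536 in a fit of the compared groups alone, where the call was lost), and the ratio of levels was 25.0 with library 1 and 6.21 without it.

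Arg1 (Entrez 11846, chromosome 10, 24915207 to 24927470), the cytosolic arginase, stayed at group means of 0.180 to 0.333 CPM in 9 of the 10 groups. The exception was KO OVA 30 min, where libraries 1, 2 and 3 held 0.306, 3.35 and 0.0965 CPM, that is 15, 153 and 1 counts. A single library made this group high, while library 1 lay within the range of the other groups and library 3, the shallowest of the series, held a single count. KO against WT gave 2.504 at OVA 30 min (edgeR FDR 0.00447) and OVA 30 min against untreated KO cells 2.81 (FDR 0.00602). Without KO library 2 they were -0.0052 (FDR 1) and 0.30 (FDR 0.919).

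That library also stood out for Sfrp4, a stromal gene looked up after the values were seen, at 27.6 CPM against 1.61 and 6.85 CPM in the other libraries of its group. Its sum over the 8 stromal markers was 1030.3 CPM, against 746 and 890 CPM. Sfrp4 was also high in WT OVA 4 h library 3 (25.7 CPM) and KO Jurkat 4 h library 2 (16.5 CPM). Each held the most Arg1 of its group (0.537 and 0.397 CPM), from 29 counts against 7 and 14, and from 15 counts against 10 and 8. Other libraries went the other way. WT Jurkat 30 min library 3 held the most Sfrp4 of its group (2.35 CPM) and the least Arg1 (0.225 CPM). KO OVA 30 min library 3 held 6.85 CPM of Sfrp4 and 1 count of Arg1. Whether stromal RNA has a part in the Arg1 values was not tested.

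Arg2 (Entrez 11847, chromosome 12, 79130788 to 79156301), the mitochondrial arginase, was the arginase present at a steady low level. Untreated libraries held 2.14, 2.37 and 2.02 CPM in WT and 1.18, 1.26 and 1.68 CPM in KO, with every KO library below every WT library. KO against WT was -0.66 ± 0.16 on the log2 scale (edgeR FDR 0.00780), and the call was lost without KO library 1 (FDR 0.0616). Values with OVA for 4 h were 3.17, 2.70 and 2.61 CPM in WT and 2.28, 1.83 and 1.68 CPM in KO, again without overlap. There the difference was -0.53 ± 0.15 (FDR 0.0174), and it did not pass without WT library 1 (FDR 0.105), KO library 2 (FDR 0.0725) or KO library 3 (FDR 0.0932).

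At 30 min Arg2 overlapped between genotypes with both treatments (means 1.87 and 1.43 CPM in WT and KO given OVA, 2.14 and 1.86 CPM given Jurkat cells), and Jurkat cells at 30 min left KO cells uncalled against untreated (0.43, edgeR FDR 0.0753; 0.0302 without KO untreated 3). Jurkat cells at 4 h raised it to 6.93, 5.77 and 5.53 CPM in WT and 5.78, 5.61 and 5.09 CPM in KO, above every other library of either genotype. The rise was 1.48 ± 0.14 in WT and 1.99 ± 0.15 in KO (edgeR FDR 1.00e-10 and 6.09e-13), and the genotypes overlapped at that time (KO against WT -0.15, 95% interval -0.42 to 0.12, FDR 0.451). With OVA at 4 h the KO difference from untreated cells was 0.50 (FDR 0.0478) and that of WT 0.37 (FDR 0.0675). The KO call was lost without KO untreated 1 or 2 (FDR 0.191 and 0.157) and without KO OVA 4 h 1 or 2 (FDR 0.301 and 0.0673).

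Gch1 (Entrez 14528, chromosome 14, 47153895 to 47189402) encodes GTP cyclohydrolase, which starts the synthesis of tetrahydrobiopterin, the cofactor that Nos2 needs. Without treatment it held 16.6, 16.6 and 15.2 CPM in WT and 15.0, 14.7 and 15.4 CPM in KO, and the genotypes overlapped. After 4 h of OVA it held 24.4, 23.9 and 21.3 CPM in WT and 18.9, 17.96 and 18.4 CPM in KO, without overlap. At Jurkat 4 h it held 121, 139 and 132 CPM in WT and 109, 105 and 114 CPM in KO, again without overlap.

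KO cells thus held less Gch1 than WT cells at 4 h of each treatment, by -0.33 ± 0.07 with OVA and -0.26 ± 0.06 with Jurkat cells on the log2 scale (edgeR FDR 0.000801 and 0.00139). Both passed in all 14 alternative fits. The rise over untreated cells was 3.02 ± 0.06 in WT and 2.86 ± 0.06 in KO at Jurkat 4 h and 0.52 and 0.30 at OVA 4 h, and all 4 passed in every alternative. At 30 min the changes were small. Jurkat cells gave 0.20 in WT (FDR 0.0270) and 0.31 in KO (FDR 0.00218), and OVA gave 0.24 in WT (FDR 0.0191) and 0.17 in KO (FDR 0.210). The WT call with OVA was lost without untreated 3 (FDR 0.115) or OVA 30 min 1 (FDR 0.0941). The WT call with Jurkat cells was lost without untreated 3 (FDR 0.14) or Jurkat 30 min 1 or 3 (FDR 0.0522 and 0.119).

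Sod2 (Entrez 20656, chromosome 17, 13007839 to 13018119), the mitochondrial superoxide dismutase, differed between genotypes in a direction that varied with the condition. Untreated libraries held 52.8, 50.7 and 49.9 CPM in WT and 56.3, 55.3 and 54.1 CPM in KO. With OVA for 4 h they held 96.7, 98.0 and 89.2 CPM in WT and 80.8, 79.9 and 82.0 CPM in KO. At Jurkat 4 h they held 213, 217 and 206 CPM in WT and 230, 225 and 226 CPM in KO. The KO libraries lay above the WT libraries untreated and at Jurkat 4 h, and below them at OVA 4 h, each time without overlap.

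On the log2 scale KO against WT was 0.11 ± 0.04 untreated (edgeR FDR 0.0564; 0.0430 without WT untreated 1), -0.23 ± 0.04 at OVA 4 h (FDR 5.78e-05) and 0.10 ± 0.04 at Jurkat 4 h (FDR 0.0423). The OVA 4 h call passed in all 14 alternative fits. The Jurkat 4 h difference was 0.18 when scaled to total counts, and its call held in 4 of 14 alternative fits. The call was lost without any 1 of its 6 libraries (FDR 0.0762, 0.0506 and 0.17 without WT 1, 2 and 3, and 0.123, 0.0759 and 0.0836 without KO 1, 2 and 3). It was also lost with DESeq2 (adjusted p 0.087), its size factors (FDR 0.0948), the compared groups alone (FDR 0.0731) and no filter (FDR 0.0575). At 30 min the genotypes overlapped, the OVA means being 58.9 ± 1.76 CPM (WT) and 57.7 ± 1.35 CPM (KO) and the Jurkat means 57.0 ± 0.595 CPM (WT) and 59.3 ± 2.59 CPM (KO).

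The difference between genotypes in the Sod2 response was tested directly. OVA for 4 h raised Sod2 by 0.89 ± 0.04 in WT and by 0.55 ± 0.04 in KO (edgeR FDR 1.16e-16 and 1.12e-11), and KO minus WT was -0.34 ± 0.05 (FDR 0.00266). Sod2 was 1 of 6 genes called in this test, 0.0405% of those tested, and it passed in all 20 alternative fits, between -0.38 and -0.31. The rise with Jurkat cells at 4 h was 2.05 ± 0.04 in WT and 2.04 ± 0.04 in KO, a difference of -0.01 (95% interval -0.12 to 0.09, FDR 0.929). A further contrast, added after these values were seen, set the genotype difference with Jurkat cells at 4 h against that with OVA at 4 h. It was 0.33 ± 0.05 for Sod2 (FDR 0.000479), the 1 member called where 2.53% of all genes were, and it passed in all 20 alternatives.

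**Figure D2:**
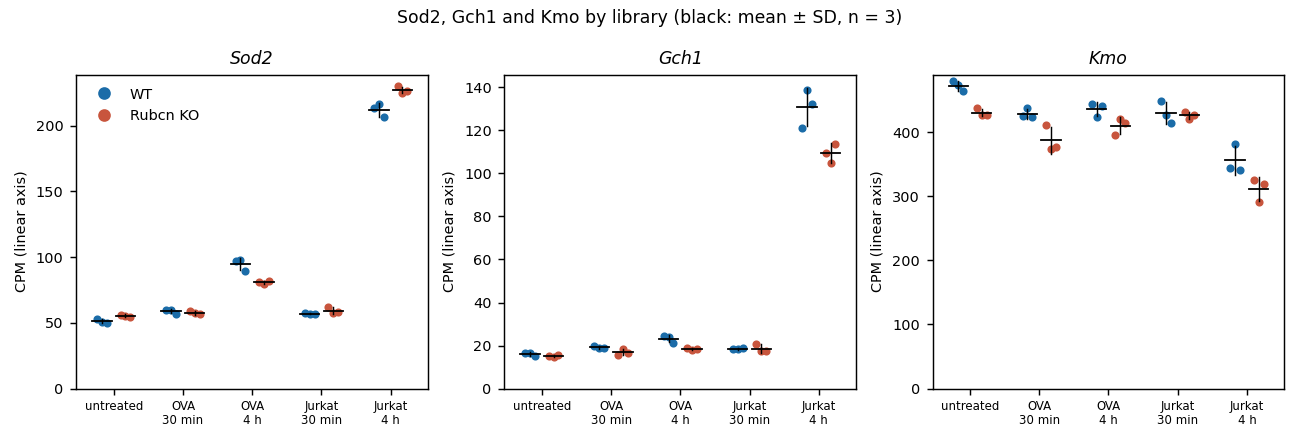
CPM of Sod2, Gch1 and Kmo in every library on a linear axis from 0, with group mean and SD (n = 3) in black. For Sod2 the KO libraries lie below the WT libraries at OVA 4 h (80.9 against 94.7 CPM) and above them at Jurkat 4 h (227 against 212 CPM), while Gch1 and Kmo at Jurkat 4 h are lower in KO.

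Ido1 (Entrez 15930, chromosome 8, 24584133 to 24596952) and Ido2 (Entrez 209176, chromosome 8, 24531892 to 24576333) encode the 2 indoleamine dioxygenases, neighbours on the chromosome. In the 8 groups other than Jurkat 4 h, Ido1 means ran from 0.253 to 0.379 CPM and Ido2 means from 0.247 to 0.513 CPM, and no comparison among these groups was called for either gene. Without KO untreated 2 the Ido2 difference of OVA 4 h from untreated KO cells passed (edgeR FDR 0.0266). At Jurkat 4 h Ido1 held 4.01, 5.38 and 4.81 CPM in WT and 3.08, 2.78 and 2.95 CPM in KO. Ido2 then held 2.68, 2.72 and 2.97 CPM in WT and 2.27, 1.19 and 2.14 CPM in KO. All 6 libraries were above every other library of the table for each gene, and the WT libraries lay above the KO libraries.

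Ido1 rose by 3.72 ± 0.17 in WT and 3.52 ± 0.18 in KO on the log2 scale, and Ido2 by 2.70 ± 0.27 and 2.91 ± 0.30 (edgeR, highest FDR of the 4 6.86e-10). KO against WT at Jurkat 4 h was -0.69 ± 0.13 for Ido1 (FDR 0.000279), which passed in 13 of 13 alternatives. It was -0.58 ± 0.22 for Ido2 (FDR 0.0620; 0.0392 without KO library 1).

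Kmo (Entrez 98256, chromosome 1, 175632193 to 175660853), kynurenine monooxygenase, was high without treatment. Untreated libraries held 480, 474 and 464 CPM in WT and 438, 427 and 428 CPM in KO. At Jurkat 4 h they held 345, 382 and 341 CPM in WT and 326, 291 and 319 CPM in KO. The genotypes did not overlap at either point, and the Jurkat 4 h libraries were the lowest of their genotype. The OVA 4 h values were 444, 424 and 442 CPM in WT and 396, 421 and 414 CPM in KO.

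Kmo fell by 0.41 ± 0.05 in WT and by 0.47 ± 0.05 in KO with Jurkat cells at 4 h (edgeR FDR 2.43e-09 and 1.87e-10); scaled to total counts the differences were -0.81 and -0.80. The 9 conventional dendritic cell 1 markers summed in WT to 5147 ± 177 CPM untreated and 3995 ± 137 CPM at Jurkat 4 h. Of them, 6 were called lower and 2 higher, where 40.6% of all genes were lower and 38.9% higher. The 8 markers of conventional dendritic cells 2 summed to 1784 ± 26.5 and 1080.2 ± 37.1 CPM, with 6 called lower and 1 higher. The 6 general dendritic cell markers went from 21172 ± 1406 to 36744 ± 1212 CPM, with 4 called higher and 2 lower. The 10 plasmacytoid dendritic cell genes went from 2853 ± 51.2 to 3870 ± 342 CPM, with 6 called higher and 4 lower. The part of these shifts in the fall of Kmo was not tested. KO against WT at that time was -0.19 ± 0.05 (FDR 0.00285), called in all 14 alternatives (-0.11 when scaled to total counts). In untreated cells it was -0.13 (FDR 0.0579) and at OVA 4 h -0.09 (FDR 0.232).

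The differences in Kmo at 30 min were small and near the threshold. Where leaving out a single library ended a call, the log2 difference stayed between -0.12 and -0.16. KO against WT with OVA was -0.14 (edgeR FDR 0.0350), lost without WT library 1 or 2 (FDR 0.0648 and 0.129) or KO library 2 or 3 (FDR 0.216 and 0.119). In WT, OVA 30 min against untreated was -0.14 (FDR 0.0418), lost without any 1 of its 6 libraries (FDR 0.0671 to 0.129). In KO the same comparison was -0.15 (FDR 0.0566; 0.0162 without KO OVA 30 min 1). Jurkat 30 min against untreated in WT was -0.14 (FDR 0.0246), lost without untreated 1 or 2 (FDR 0.0705 and 0.0624) or Jurkat 30 min 2 or 3 (FDR 0.0704 and 0.0750).

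Across treatments, the members were counted beside all genes tested. With Jurkat cells at 4 h 8 of 9 were called in WT, where 79.5% of all genes were, and 8 of 9 in KO, where 78.5% were. In WT 7 members were higher (38.9% of all genes) and 1, Kmo, was lower (40.6%). The median log2 difference of the members was 2.70 in WT and 2.86 in KO, against -0.02 and -0.03 over all genes. With OVA at 4 h 4 of 9 were called in WT (23.5% of all genes), all 4 higher (11.9%) and 0 lower (11.7%); these were Acod1, Nos2, Gch1 and Sod2. In KO 4 were called (11.6%): Acod1, Arg2, Gch1 and Sod2. At 30 min of OVA 4 were called in WT (10.7%) and 2 in KO (3.77%, Acod1 and Arg1), and at 30 min of Jurkat cells 4 in WT (28.7%; Acod1, Gch1, Sod2 and Kmo) and 3 in KO (17%; Acod1, Nos2 and Gch1).

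**Figure D3:**
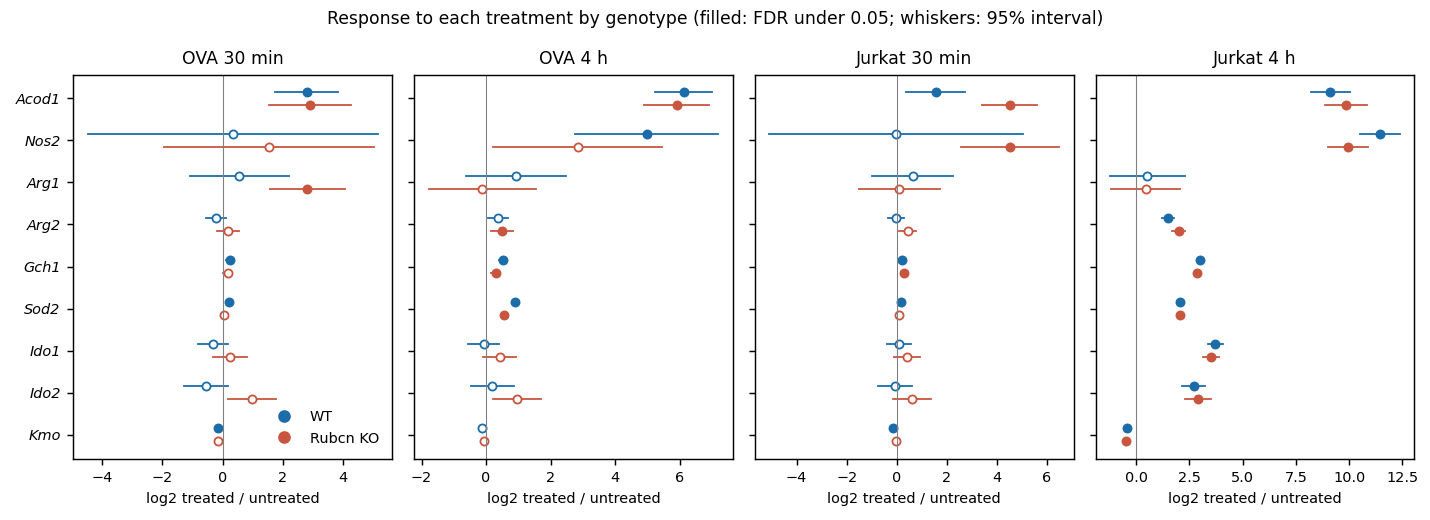
Log2 difference of each gene from untreated cells of the same genotype (horizontal axis, its own scale for each treatment), as a point with its 95% interval; filled points have an FDR under 0.05. The 4 comparisons of a genotype share its 3 untreated libraries. Acod1 reaches 6.12 in WT and 5.91 in KO at OVA 4 h, and the intervals of Nos2 at 30 min are wide, where both groups compared hold few counts in most libraries.

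Jurkat cells were also set against OVA at 4 h. In WT 8 of 9 members were called (77.5% of all genes) and in KO 8 of 9 (76.4%), 7 higher with Jurkat cells and Kmo lower in each. With total counts the share of calls that were higher moved from 48.0% to 26.5% in WT and from 47.5% to 27.5% in KO. Gch1 was 2.49 ± 0.06 higher in WT and 2.57 ± 0.06 higher in KO on the log2 scale, Acod1 2.99 and 3.93 higher, Sod2 1.16 and 1.49 higher. Arg1 was the member not called.

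Between genotypes, 4 of 9 members were called at OVA 4 h, where 12.6% of all genes were: Acod1, Arg2, Gch1 and Sod2. All 4 were lower in KO (6.35% of all genes) and 0 were higher (6.22%), and the members' median log2 difference was -0.33 against -0.002 over all genes. In untreated cells 1 member was called (9.97%), Arg2, which was lower (3.97% lower, 6% higher over all genes). At OVA 30 min 2 were called (12.4%), Arg1 and Kmo, and at Jurkat 30 min 2 (9.25%), Acod1 and Nos2. At Jurkat 4 h 5 were called (22.9%): Nos2, Gch1, Ido1 and Kmo lower and Sod2 higher.

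**Figure D4:**
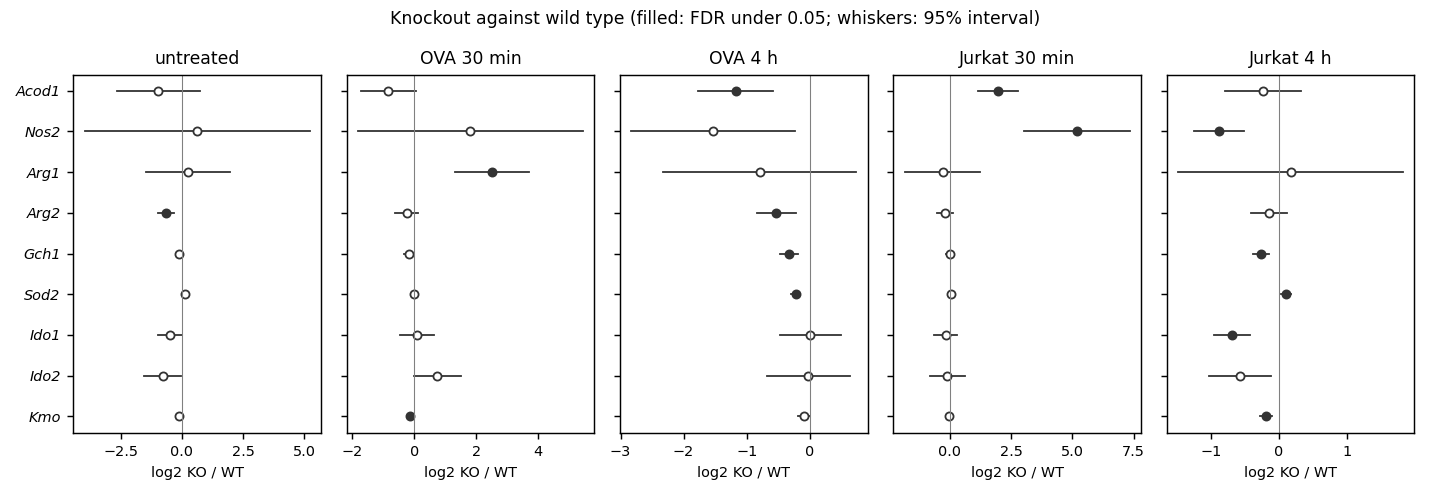
Log2 difference of KO from WT for each gene (horizontal axis, its own scale for each condition), as a point with its 95% interval; filled points have an FDR under 0.05. At OVA 4 h the filled points (Acod1 -1.18, Arg2 -0.53, Gch1 -0.33, Sod2 -0.23) all lie to the left of 0. The widest intervals at OVA 4 h belong to Nos2 and Arg1, which have few counts there.

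Few responses were shown to differ between genotypes. With edgeR 0 members were called for the response to OVA 30 min (0% of all genes), 0 for Jurkat 30 min (0.00675%) and 0 for Jurkat 4 h (4.26%). An unadjusted edgeR p under 0.05 was held by 3, 1 and 1 of the 9 members in these comparisons. Among all 14808 genes it was held by 795, 1098 and 2823. DESeq2 called 0, 1 and 0 members; the call was Acod1 at Jurkat 30 min, at 2.96 (adjusted p 0.000393). With edgeR the same difference was 2.95 (FDR 0.400; 0.0135 without KO Jurkat 30 min 2). Among all genes called for Jurkat 4 h, 40.3% were higher, and 76.8% with total counts. For OVA 4 h these shares were 0% and 14.3%, and for the added contrast 51.7% and 77.1%.

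Jurkat cells bring human RNA, whose reads may be counted on mouse genes. Over 29 T-lineage genes, of which several are also expressed by dendritic cells, the summed level at Jurkat 4 h was 519 ± 9.05 CPM in WT and 456 ± 3.37 CPM in KO, a ratio of 0.878 (exact two-sided permutation p 0.1, the smallest that 3 against 3 libraries allow). At Jurkat 30 min the libraries overlapped, at 438 ± 7.32 CPM in WT and 433 ± 7.41 CPM in KO, a ratio of 0.990 (exact permutation p 0.6). Untreated cells already had a sum over the 29 genes of 371 ± 5.68 CPM in WT and 403 ± 12.2 CPM in KO. Both ratios include that level. For 12 of these genes that were under 1 CPM in untreated cells, a list cut after the values were seen, untreated WT and KO cells had sums of 3.20 and 3.90 CPM. At Jurkat 30 min the sums were 40.4 ± 0.828 CPM (WT) and 25.5 ± 5.55 CPM (KO), and at 4 h 105 ± 15.6 CPM (WT) and 72.3 ± 9.30 CPM (KO). The KO to WT ratios of that sum were 0.632 and 0.686. Nos2, Gch1, Ido1 and Kmo were called lower in KO at the same 4 h and Sod2 higher. Acod1, Arg1, Arg2 and Ido2 were not called. The part of a different load of Jurkat RNA in these results was not tested. The 16 monocyte or macrophage genes summed to 5157 ± 229 CPM in WT and 5017 ± 49.99 CPM in KO at OVA 4 h. Of them, 6 of 16 were called lower and 0 higher, where 6.35% of all genes were lower and 6.22% higher. At Jurkat 4 h their sums were 4066 ± 207 CPM (WT) and 4120 ± 188 CPM (KO), with 6 called lower in KO and 1 higher (22.9% of all genes called). Against untreated cells, OVA at 4 h left 10 higher and 0 lower in WT (11.9% and 11.7% of all genes). In KO it left 6 higher and 1 lower (11.6% of all genes called). The part of these genes in the results was not tested.

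Other genes of the same pathways were followed from lists drawn up with earlier results known. Their counts at Jurkat 4 h in WT stand against 79.5% of all genes called there (38.9% higher, 40.6% lower). Those at OVA 4 h in WT stand against 23.5% (11.9% higher, 11.7% lower). For KO against WT the shares were 9.97% in untreated cells (6% higher, 3.97% lower) and 12.6% at OVA 4 h (6.22% higher, 6.35% lower). Of 23 citric acid cycle genes, all tested, Jurkat cells at 4 h in WT left 7 higher and 10 lower, a share called near that of all genes. Fumarate hydratase Fh1 fell from 196 ± 8.15 to 91.6 ± 0.623 CPM and the citrate carrier Slc25a1 rose from 62.3 ± 2.10 to 102 ± 2.92 CPM. OVA for 4 h in WT left 2 higher and 3 lower, Fh1 among the latter (169 ± 1.38 CPM). Between genotypes the citrate carrier alone was called in untreated cells (69.5 CPM in KO), and at OVA 4 h 2 were higher in KO (Idh2 and Aco1) and 1 lower (Sdhb, a subunit of succinate dehydrogenase). The median log2 difference of the list was 0.04 in untreated cells and 0.01 at OVA 4 h.

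The arginine list held 25 genes, of which 20 were tested. Jurkat cells at 4 h left 12 higher and 3 lower in WT (79.5% of all genes called), with a median log2 difference of 0.27 against -0.02 over all genes. The cationic amino acid transporter Slc7a2, which carries arginine into cells, rose from 1.56 ± 0.423 CPM to 5.10 ± 0.799 at OVA 4 h (edgeR FDR 3.84e-07) and to 59.5 ± 4.97 at Jurkat 4 h (FDR 8.56e-22). Ornithine decarboxylase Odc1, the first enzyme of polyamine synthesis, rose from 55.9 ± 2.72 to 110.4 ± 1.32 CPM, and Gatm, which uses arginine to make a creatine precursor, fell from 39.3 ± 3.52 to 18.3 ± 0.577 CPM. OVA for 4 h in WT left 3 higher and 1 lower. In KO against WT 1 was higher in untreated cells, and at OVA 4 h 2 were higher and 2 lower, among them spermine synthase Sms (36.0 ± 1.76 CPM in KO, 42.5 ± 1.68 in WT).

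Of 7 other tetrahydrobiopterin genes 2 were higher and 4 lower at Jurkat 4 h in WT, with a median log2 difference of -0.43, while Gch1 rose. Pts, the next enzyme after Gch1, fell there from 40.2 ± 0.422 to 24.7 ± 0.653 CPM (edgeR FDR 2.92e-16). Qdpr, which recycles the cofactor, fell from 64.3 ± 1.11 to 43.0 ± 1.35 CPM (edgeR FDR 3.98e-15). At Jurkat 30 min 2 of 7 were higher in WT, where 28.7% of all genes were called in either direction. In KO 3 of 7 were higher, where 17% were called, and 0 were lower in either genotype. The recycling gene and Pts were also the 2 called at OVA 4 h in WT, both lower.

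Of 20 tryptophan genes 15 were tested, and at Jurkat 4 h in WT 9 were higher and 6 lower, where 79.5% of all genes were called. Il4i1, an amino acid oxidase that acts on tryptophan and phenylalanine, rose from 1.11 ± 0.323 to 13.8 ± 1.15 CPM (edgeR FDR 3.18e-19), and kynureninase Kynu from 97.3 ± 5.14 to 224 ± 18.9 CPM (FDR 1.22e-18). Kmo, which supplies the substrate that kynureninase prefers, fell in the same libraries. With OVA for 4 h in WT 3 were higher and 2 lower. KO cells without treatment held more of the aryl hydrocarbon receptor Ahr, which binds tryptophan products (31.5 ± 0.674 against 24.4 ± 1.15 CPM, FDR 0.000657), and of its target Cyp1b1 (38.1 ± 5.70 against 26.3 ± 1.19 CPM, FDR 0.00214), the 2 genes called there. After OVA 4 h 3 were higher in KO, Cyp1b1 among them, and 4 lower, with Kynu among the latter (96.9 ± 3.78 CPM against 108 ± 4.89 CPM in WT).

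Among 17 further genes of superoxide and peroxide removal, Jurkat cells at 4 h in WT left 9 higher and 8 lower, where 38.9% of all genes were higher and 40.6% lower. Thioredoxin reductase Txnrd1 rose from 132 ± 1.29 to 638 ± 31.1 CPM and thioredoxin Txn1 from 137 ± 5.25 to 358 ± 15.4 CPM. With OVA at 4 h in WT 6 were higher and 2 lower, Txnrd1 reaching 226 ± 16.6 CPM. KO against WT called 0 of 17 in untreated cells with edgeR. At OVA 4 h it called 2: peroxiredoxin Prdx5, lower at 121 ± 4.11 against 138 ± 7.20 CPM, and extracellular superoxide dismutase Sod3, higher at 8.25 ± 0.750 against 5.61 ± 0.312 CPM.

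The genes most like a member in their course over the 18 libraries without Jurkat cells were named by Pearson's r of log2 CPM among 10458 genes, as a description; the points share their libraries and treatments. For Acod1 they were Clec4e (r 0.994), Gpr84 (0.992) and Tnfaip2 (0.979), with 0.990, 0.992 and 0.925 over all 30 libraries. For Gch1 they were Etv3 (0.967), Gadd45b (0.955) and Cd83 (0.954), with 0.998, 0.996 and 0.992 over 30. For Sod2 they were Ripk2 (0.985), Aoah (0.982) and Bcl2a1b (0.981), and for Nos2 Hivep2 (0.956), Nectin2 (0.947) and Jdp2 (0.939). Arg2 had lower values, with B4galt4 at 0.887, Cdipt at 0.880 and Ifi213 at 0.879. For Kmo, Arid4a had 0.955 over 18 libraries but -0.564 over 30, Gapt 0.938 and 0.935, and Rell1 0.926 and -0.433.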

How the data were processed

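RNA was sequenced from 30 libraries, 3 in each of 10 groups; groups were taken from the sample titles. Read counts of each gene, as whole numbers, were deposited by the authors in 1 table that also gives symbols, Entrez identifiers and mm10 intervals, per the file headers. The submitters' processing notes name STAR 2.5, Subread, featureCounts 1.5.0-p1, DESeq2 and mm10; the annotation, the use of strand and the treatment of human reads were not given in the sources used here.

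Counts were filtered with filterByExpr by group, which left 14808 of 25611 genes, and scaled by TMM (factors 0.765 to 0.842 in Jurkat 4 h libraries and 1.03 to 1.07 in the others). Each comparison used the quasi-likelihood test of edgeR 4.0.16 in R 4.3.3 (two-sided), with 1 mean per group over all 30 libraries, no covariate and Benjamini-Hochberg adjustment over all genes tested. The SE of a log2 difference is its size over the root of F. The fit was tested on simulated data. Ratios of Nos2 counts have exact 95% intervals. Levels per kilobase use, for each gene, the GENCODE M21 transcript paired with its longest RefSeq NM entry. Promoter windows are from RefSeq (GRCm38.p6).

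Alternatives were DESeq2 (1.42.0), its size factors, total counts, no filter, a stricter filter (5 CPM or more in 3 libraries), the compared groups alone, a block for the replicate number, and each library left out in turn. A fit without KO Jurkat 30 min library 1 and KO OVA 30 min library 2 was added after the data were seen. All 9 members are named. Pathway genes were named, up to 3 per list and contrast, from those called with at least 5 CPM, by smallest p; 1 such result is not reported here. Likeness used genes reaching 5 CPM, 3 per member, with a prior count of 2. The members and all lists were chosen with earlier results of these data known.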

Additional observations from a re-analysis of the deposited data

Results flagged for a closer look

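Sod2 stood out because the genotypes differed in its response, by a test of the difference itself. The response to 4 h of OVA protein was smaller in KO than in WT by -0.34 on the log2 scale (edgeR FDR 0.00266). The genotype difference with apoptotic Jurkat cells at 4 h, less that with OVA at 4 h, was 0.33 (edgeR FDR 0.000479), a contrast chosen after the values were seen. Both use the same OVA 4 h libraries, so they are not independent of each other.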

How the results depend on the processing

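For single members, 905 of the alternative values of called differences stayed called in the same direction, 59 lost the call and 2 reversed; of those not called, 33 gained a call. The 2 reversals are Arg1, KO against WT at OVA 30 min, at -0.0052 without KO OVA 30 min library 2 and -0.00537 without that library and KO Jurkat 30 min library 1; leaving out single libraries it reached 3.099 at the most. Leaving out 1 library in turn, the number of members called was 2 in every case for Jurkat 30 min against untreated in WT (4 with all libraries) and ran from 0 to 2 for KO against WT at OVA 30 min, from 0 to 2 for KO against WT in untreated cells, from 0 to 1 for the KO minus WT response to Jurkat 30 min, from 0 to 3 for OVA 30 min against untreated in KO and from 2 to 3 in WT (4 with all libraries).

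KO against WT in untreated cells had 2 members called in place of 1 with the stricter filter, DESeq2, its size factors, the compared groups alone, the replicate block and total counts. KO against WT at OVA 30 min had 1 with the stricter filter and with total counts, at Jurkat 30 min 0 in the compared groups alone, and at Jurkat 4 h 3 with DESeq2. DESeq2 called 1 for the KO minus WT response to Jurkat 30 min. OVA 30 min against untreated in KO had 1 in the compared groups alone and without the 2 libraries that stand apart, and the genotype difference at Jurkat 4 h less OVA 4 h had 2 under each. The cause was not tested.

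Over all genes, some counts of calls moved by over 1.5 times. They are given here with the lowest over the alternatives other than no filter and the stricter filter. For KO against WT they were 1477 and 898 in untreated cells, 1834 and 718 at OVA 30 min, 1861 and 1172 at OVA 4 h, 1370 and 708 at Jurkat 30 min and 3392 and 2189 at Jurkat 4 h. Against untreated cells they were 1578 and 824 for OVA 30 min in WT, and in KO 558 and 173 for OVA 30 min, 1722 and 1105 for OVA 4 h and 2514 and 1579 for Jurkat 30 min. For KO minus WT responses they were 631 and 337 at Jurkat 4 h and 375 and 198 for Jurkat 4 h less OVA 4 h, while OVA 4 h had 6 and ran from 3 to 26, and Jurkat 30 min had 1 and ran from 0 to 81. The replicate numbers did not pair the libraries: correlations of same-numbered deviations ran from -0.118 to 0.151, and 0 of 20 contrasts had every pair over 0.1. With the replicate block Sod2 was called for KO against WT in untreated cells (FDR 0.0326) and Arg2 was lost at OVA 4 h in KO (FDR 0.0521). Depth limits Arg1 in most libraries, and Nos2, Ido1 and Ido2 outside Jurkat 4 h, where single libraries hold few counts.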
